A study of Rattus norvegicus with 12 samples.

Results

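The RNA described here came from 3 cultures of neonatal rat cardiac fibroblasts that received only negative control siRNA. They are the reference libraries of a study of Yap and Wwtr1, a pair of transcriptional coactivators restrained by the Hippo kinases, and make up 3 of its 12 samples. Cells were prepared from heart ventricles of Sprague Dawley rats at postnatal day 2 with a dissociation kit and a Percoll gradient, and kept in DMEM with 15% FBS. Per the labels, the siRNA was added after 16 h as a mixture of MISSION siRNA Universal Negative Control #1 and #2, each at 25 nM, and RNA was taken 48 h later. The study's methods state that preparations were repeated with separate litters, so the libraries came from different litters. All 12 samples received an siRNA and transfection reagent, so the values describe transfected cells and no cell left untreated. The study's methods give a later transfection, a lower serum content and, in their passage on RNA, a later collection than the labels. The design text of the series calls the isolated cells cardiac myocytes, and its title, labels and methods call them fibroblasts. The libraries were selected by their labels alone, and the 12271 genes of the deposited table were ranked by their mean over the 3 libraries.

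Cardiac fibroblasts build the collagen network that holds the heart muscle together and turn it over throughout life. After injury, or when plated on a stiff dish in serum, they become myofibroblasts, which assemble smooth muscle actin into stress fibres, lay down matrix and pull on it. Transforming growth factor beta and mechanical tension, the latter relayed in part by Yap and Wwtr1 through TEAD factors, are known drivers of that state. A ventricle also holds cardiomyocytes, macrophages, endothelial cells and the cells that coat vessels and the heart surface.

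The libraries held 36.0 to 36.3 M reads by the whole-number steps of the values, with a mean of 36.2 M ± 0.122 (SD, n = 3). Each value is a normalized count, that is, a read count divided by 1 size factor per library. Reads grow with transcript length, so a rank by normalized count is a rank by reads and not by molecules. Ranks and shares of different genes are therefore given as reads only. Shares are of the reads of the 12271 genes in the deposited table, and a gene without an entry there is not counted. With 1 group and no contrast, nothing was tested, and SDs describe the spread between the 3 libraries.

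Matrix genes dominated the culture. Col1a1 and Col1a2, which encode the chains of type I collagen, and Col3a1, which encodes type III collagen, were the 3 genes of highest mean. Together they took 8.46%, 7.46% and 7.21% of the reads of the table's genes in replicates 1, 2 and 3. Fn1 (fibronectin), Bgn (the proteoglycan biglycan), Eef1a1 (translation elongation), Sparc (a collagen-binding glycoprotein), Acta2 (smooth muscle actin), Actb (cytoplasmic actin) and Col4a1 (basement membrane collagen) completed the first 10. Of the 20 genes of highest mean, 9 belonged to the lists of collagens, matrix glycoproteins and proteoglycans, 4 to the list of contractile and adhesion genes and 4 to the list of cytoskeletal and housekeeping genes. The other three were Vim (the intermediate filament vimentin), Serpinh1 (the collagen chaperone HSP47) and Rplp0 (a ribosomal protein).

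Col1a1 stood at 1644809, 1379994 and 1467397 normalized counts in replicates 1, 2 and 3, a mean of 1497400.0 ± 134933 (SD, n = 3). That alone was 4.43%, 3.81% and 3.94% of the reads of the 3 libraries. Replicate 1 was the highest and replicate 2 the lowest, and the ratio of highest to lowest library was 1.19. The partner chain Col1a2 had 810290.0, 778477 and 769292 normalized counts and was more even, with a ratio of 1.05. Col3a1 had 688661, 547631 and 449105, so replicate 1 was 1.53 times replicate 3. For each Col1a2 read the libraries held 2.03, 1.77 and 1.91 Col1a1 reads.

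The reads were concentrated in few genes. The first 10 genes held 14.6%, 13.8% and 13.7% of the reads, the first 20 held 19.0%, 17.9% and 18.3%, and the first 100 held 31.7%, 30.6% and 31.3%. Of the genes ranked in the first 20 of each library, 17 were common to all 3. To reach 50% of the reads, 447 genes were needed. Genes that serve every cell were also prominent, since 78 ribosomal protein genes took 5.52%, 5.72% and 5.77%.

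**Figure D1:**
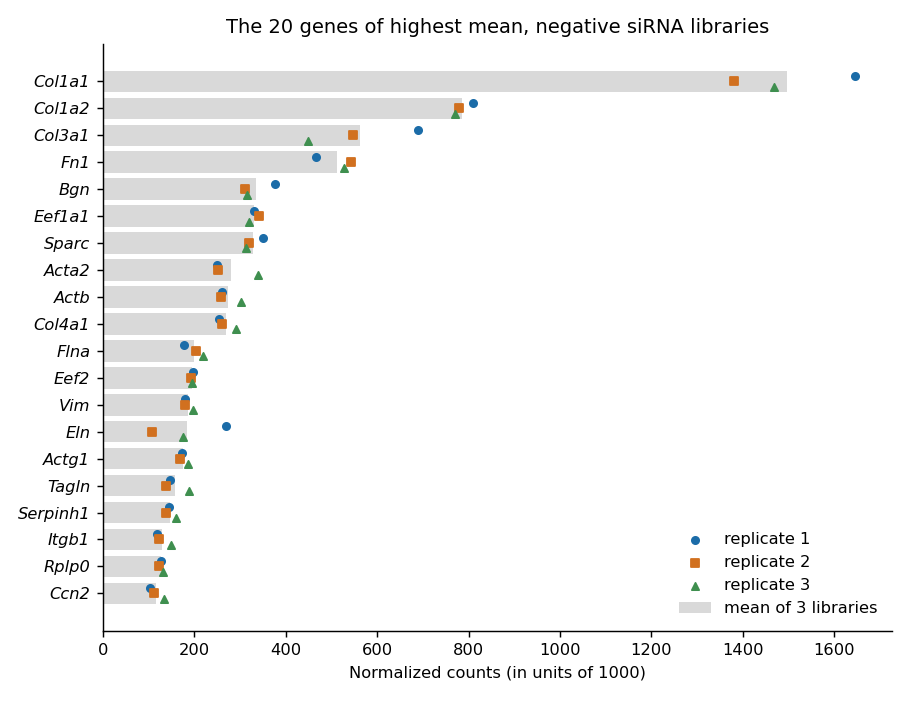
Normalized counts (x axis, in units of 1000) of the 20 genes of highest mean in the negative siRNA libraries; grey bars are means of 3 libraries and points are the libraries. Col1a1 lies far to the right at a mean of 1497400.0 normalized counts, and Eln shows the widest gap relative to its mean (CV 44.3%).

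The label was checked against markers of the cell types a ventricle can supply. Fibroblast markers were read in every library. Pdgfrb, a PDGF receptor of mesenchymal cells, had 75291, 70737 and 60220.3 normalized counts and ranked 41. Tcf21, a transcription factor of cardiac fibroblasts and their epicardial precursors, had 8297, 7638 and 6484 and ranked 826. Pdgfra, the receptor often used to mark resident fibroblasts, had 4898, 5419.7 and 3296, with replicate 3 the lowest. Ddr2, a collagen receptor, had 13036, 15338 and 11417, and Thy1, a surface glycoprotein of mesenchymal cells, had 4202, 2989 and 4005. The defining markers of the label were thus present in each library. Cardiomyocyte markers, described further on, were present too, and Tnnt2 took more reads than Tcf21, Pdgfra, Ddr2 or Thy1 in each library, without regard to transcript length. Of 32 fibroblast identity genes 30 were analysed, all of them at a mean of 10 or more. They took 0.954%, 0.958% and 0.941% of the reads, and that share was nearly equal in the 3 libraries. Most of it fell on Vim, which many cultured cells make, at 0.502% of the reads and on Pdgfrb at 0.186%.

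The cardiac transcription factors Gata4 and Gata6, which cardiac fibroblasts share with cardiomyocytes, were both read. Gata4 had 8674, 7759 and 8458 normalized counts, and Gata6 had 5000.5, 4734 and 5123. Vim had 178654, 180528 and 196482. S100a4 and S100a6 encode calcium-binding proteins common in cultured mesenchymal cells. S100a4 had 11205, 10254 and 11759, whereas S100a6 had 9749, 9701 and 12764, highest in replicate 3. The median coefficient of variation (CV, the SD as a percent of the mean) of the list was 11.2%, against 9.32% over the 11714 genes that averaged 10 or more normalized counts. Of the 30 genes, 3 had a highest library over 2-fold above the lowest, beside 7.56% of those 11714. Dpt (dermatopontin), a matrix protein, had 2859, 1428 and 714 normalized counts, highest in replicate 1 and lowest in replicate 3. The other two were low and lowest in replicate 2, Meox1, a homeobox factor, at 188, 73.0 and 162 and Gli1, a factor of the Hedgehog pathway, at 43.1, 14.0 and 28.9.

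**Figure D2:**
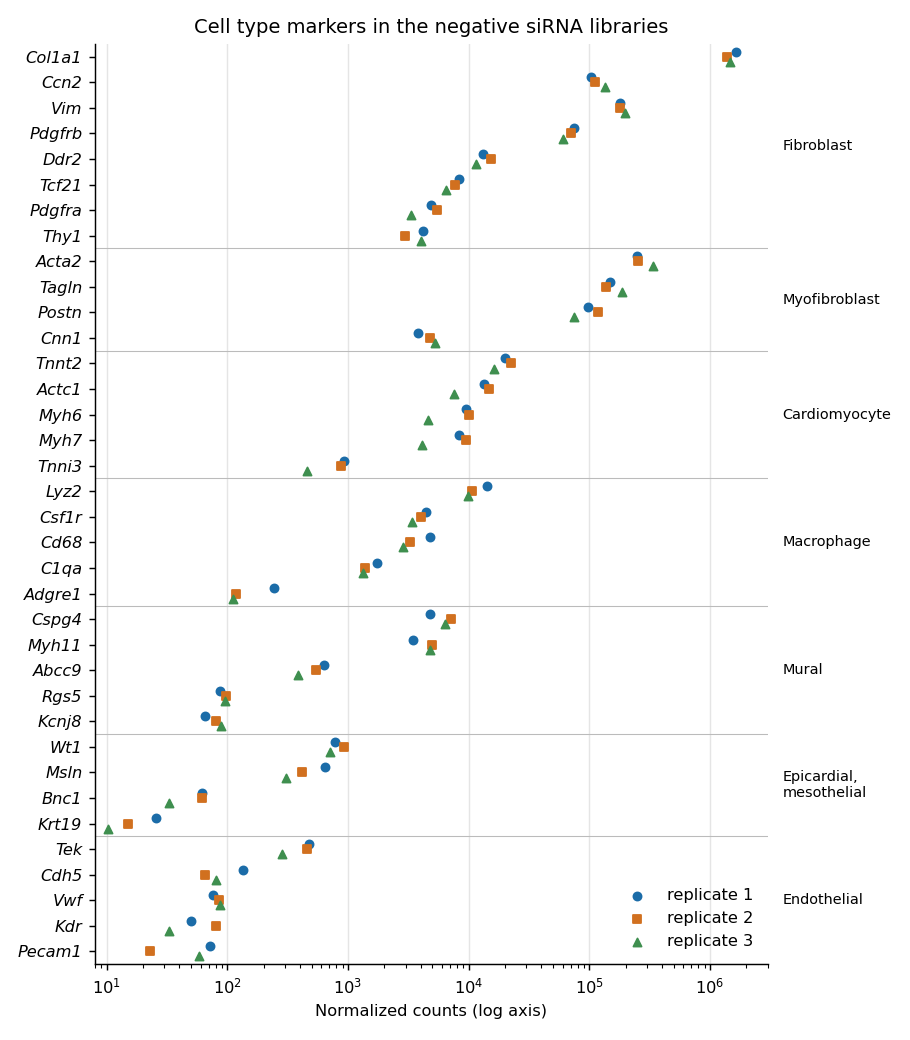
Normalized counts (log x axis) of markers of 7 cell types in the 3 negative siRNA libraries, 1 point per library. Col1a1, Acta2 and Tagln lie at the right, Tnnt2 and Lyz2 between 9893 and 22519, Cnn1 lower at 3801 to 5253, and Pecam1 and Cdh5 towards the left.

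The contractile genes described a culture rich in stress fibre transcripts. Of 41 contractile and adhesion genes 39 were analysed, all above a mean of 10, and together they took 4.19%, 4.32% and 5.13% of the reads. Acta2, the actin isoform that defines myofibroblasts, had 249844, 251358 and 338686 normalized counts, a mean of 279963 ± 50861 (SD, n = 3), and ranked 8. Replicates 1 and 2 were nearly equal and replicate 3 was the highest. Tagln, an actin-bundling protein of smooth muscle and myofibroblasts, had 147561, 138457 and 187582 in the same order of height for replicate 3. Flna (filamin A, an actin crosslinker) had 176967, 203533 and 219755, and Itgb1 (the beta 1 integrin subunit) had 118637, 122130.2 and 148952. Myh9, nonmuscle myosin heavy chain, had 79525, 82070.2 and 94890.1, but the table also lists Myh9l1 at 70825, 75413 and 79447, and reads of such like genes may have been divided between them.

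Genes that mark differentiated smooth muscle took fewer reads. Cnn1 (calponin) had 3801, 4818 and 5253 normalized counts and ranked 1447, and Actg2, the enteric smooth muscle actin, had 3084, 3505 and 4558. Myh11, smooth muscle myosin heavy chain, had 3460.2, 4917 and 4742 and ranked 1567. Over 6 actin genes, Acta2 took 35.6%, 36.0% and 40.4% of the actin reads, Actb 37.3%, 37.0% and 36.1%, and Actg1 24.7%, 24.3% and 22.1%. Actin transcripts are close in sequence, so these shares depend on how shared reads were assigned.

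The contractile genes were higher in replicate 3 as a group. Of the 39 genes, 28 were highest in replicate 3, as 34.0% of all genes with a mean of at least 10 were. Des (desmin), at 3396, 3797 and 1866, was the single one to pass 2-fold between libraries, and it was lowest in replicate 3. Of all genes with means of 1000 to 10000, where Des lay, 0.743% passed, and 0.873% of those above did. The median deviation of the 39 from the gene mean was -0.08, -0.05 and 0.16 on the log2(value + 1) scale in replicates 1, 2 and 3. Highly read genes leaned the same way, since 278 of the 500 genes of highest mean (55.6%) were highest in replicate 3, as were 27 of 34 cytoskeletal and housekeeping genes. Replicate 3 also had the lowest cardiomyocyte share of the reads. The part of these in the contractile difference was not tested.

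The promoter of Acta2 is shown because this gene carries the myofibroblast reading. The sequence is RefSeq's for build GRCr8, chr1:241172454-241172753, on the minus strand, from 250 bases before to 50 after the annotated start, written 5′ to 3′ along the gene. Capitals mark GGAATG, or its reverse complement CATTCC, the core letters of a TEAD site, which is the site through which Yap and Wwtr1 act.
Acta2: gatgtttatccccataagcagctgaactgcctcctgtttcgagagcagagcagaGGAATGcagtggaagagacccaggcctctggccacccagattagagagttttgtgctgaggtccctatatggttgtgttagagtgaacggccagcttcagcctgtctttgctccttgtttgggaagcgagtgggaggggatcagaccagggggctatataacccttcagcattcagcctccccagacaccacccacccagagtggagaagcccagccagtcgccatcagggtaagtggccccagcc
The single match begins 196 bases before the start. Of the 33 contractile genes with a promoter in the RefSeq table, 12 held the letters on either strand (36.4%), among them Flna, Tpm1, Vcl and Zyx. Over all 27457 genes in that table the share was 15.0%, and over the 9677 analysed genes with a promoter it was 11.6%. A match is a run of letters and not a measured site.

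Matrix genes were then described by role. Listed genes without an entry under their symbol are outside the shares, and 24 of 43 listed collagens were analysed. The 99 analysed collagens, glycoproteins and proteoglycans, of 134 listed, took 16.6%, 15.3% and 14.8% of the reads, a mean of 15.6 ± 0.887% (SD, n = 3). Replicate 1 was the highest and replicate 3 the lowest, the reverse of the contractile share. Of the 94 with a mean of 10 or more, 20 had a highest library over 2-fold above the lowest, and 14 of those 20 were lowest in replicate 3. Over all 11714 genes of that mean, 885 passed this 2-fold limit (7.56%), and 412 of the 885 were lowest in replicate 3. Of the 220 that also had a mean of 100 or more, 129 were lowest there. The 9 fibrillar collagen genes supplied the largest portion, 8.93%, 7.97% and 7.66%, and Col1a1, Col1a2 and Col3a1 supplied nearly all of it. Col5a1 and Col5a2 encode chains of type V collagen, which starts type I fibrils. Col5a1 had 72389.7, 79715 and 68935 normalized counts, and Col5a2 had 87736, 92363 and 88450.0. Both varied little between libraries. Col5a3 had 5741, 4819 and 5438, and Col11a1, another collagen of fibril cores, had 6089, 4453 and 4079, highest in replicate 1. Col27a1 had 818, 1085 and 965, and Col11a2, a chain best known from cartilage, was low at 81.1, 34.0 and 77.5.

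Other collagens took 1.22%, 1.21% and 1.21%. Of 32 listed, 15 were analysed, among them Col4a1, a main chain of basement membranes, at 255100.3, 261021 and 291818 normalized counts. Col6a2, of the beaded filaments around cells, had 108443, 90583 and 71693. Col4a1 was highest in replicate 3, and Col6a2 was lowest there. Col14a1, which sits on the surface of fibrils, had 56859, 52011 and 61136. Col15a1 and Col18a1 are basement membrane collagens that carry sulfated sugar chains. Col15a1 had 7335, 10279.6 and 5482, and Col18a1 had 8909, 8730.3 and 6778, both lowest in replicate 3.

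Glycoproteins took 5.22%, 5.11% and 4.98% of the reads over 58 analysed genes. Fn1, the adhesive glycoprotein of provisional matrix, had 467101, 542436 and 526954 normalized counts, lowest in replicate 1. Sparc had 350969.7, 320124 and 313718. Postn (periostin), a marker of activated fibroblasts, had 98331, 118994 and 74309.8, with replicate 2 the highest and replicate 3 the lowest. Eln, the elastic fibre protein, was the most uneven gene of the first 20 at 270336, 107756 and 175449.8, a ratio of 2.51 between replicates 1 and 2. Its CV was 44.3%, against 9.01% for Col1a1.

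Small leucine-rich proteoglycans, which coat collagen fibrils and set their spacing, leaned to replicate 1. Proteoglycans as a list took 1.19%, 1.03% and 0.983% of the reads, and 12 of the 16 members with a mean of 10 or more were highest in replicate 1, as 33.1% of all such genes were. Bgn had 377665, 310796 and 315126 normalized counts and made up most of the list's reads. Dcn (decorin) had 8338, 6793 and 4425, Lum (lumican) had 7467, 4454 and 2957 and Ogn (osteoglycin) had 15996, 12128 and 10420.3. In all 3, replicate 1 was the highest and replicate 3 the lowest. Vcan (versican), the large hyaluronan-binding proteoglycan, differed from them at 22560.2, 32625 and 25471, with replicate 2 the highest. Of the 16 proteoglycans, 7 passed the 2-fold limit (43.8%, against 7.56%). Among the 7 were Prg4, Hapln1 and Spock2, which had means of 10 to 100, where 38.3% of all genes passed, and which are not of the small leucine-rich family.

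The machinery that folds, trims and crosslinks collagen took a like share of the reads in the 3 libraries. Its 27 genes took 1.21%, 1.17% and 1.24% of the reads with a median CV of 7.17%, and 1 of 27 passed the 2-fold limit, the procollagen protease gene Tll1 at 487, 727 and 993. Of all genes with means of 100 to 1000, as Tll1 had, 4.02% passed. Serpinh1 had 145303, 138332 and 159829.6 normalized counts. P4hb, a subunit of prolyl 4-hydroxylase, had 54671, 52863 and 56453, and Pcolce, which aids removal of the collagen propeptide, had 48020.4, 41642 and 43891. Loxl1, a crosslinking oxidase, had 33955, 29937 and 30719, and Plod2, a lysyl hydroxylase, had 20759, 19689 and 22665.

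Matrix turnover genes took 0.792%, 0.835% and 0.903%. Mmp14, the membrane collagenase, had 77436, 78118 and 70658 normalized counts, and Mmp2 (gelatinase A), which Mmp14 activates, had 48129, 49416 and 42182. Timp2, the inhibitor that works with both, had 32085, 27269 and 28174. The tissue plasminogen activator gene Plat had 13675, 12814 and 14223. These turnover genes had ratios of at most 1.18 between libraries.

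**Figure D3:**
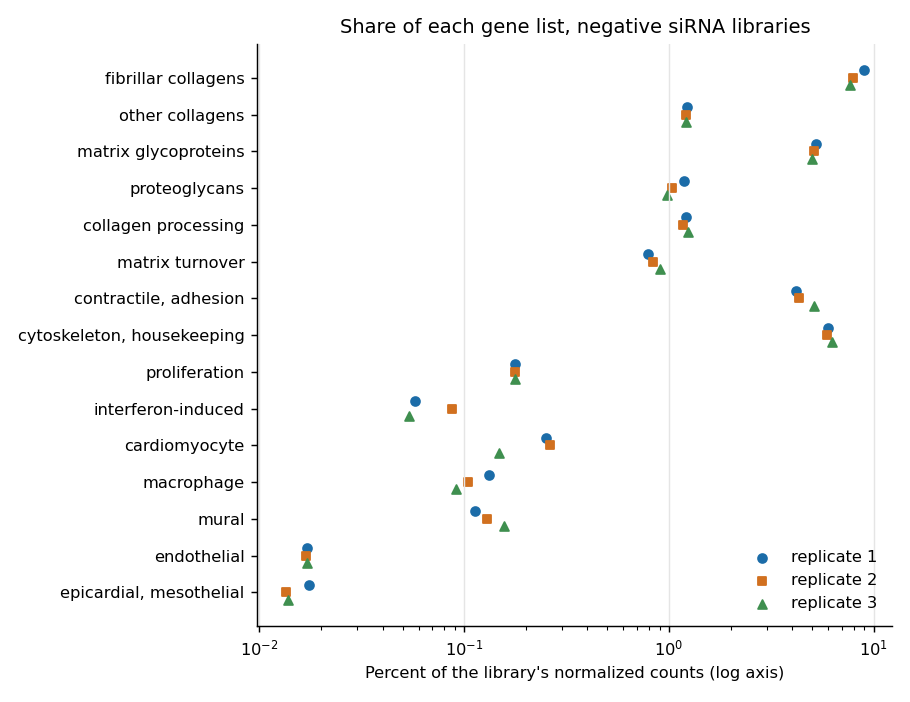
Percent of each library's normalized counts (log x axis) taken by 15 gene lists, 1 point per library. Fibrillar collagens took between 7.66% and 8.93%, and endothelial markers about 0.017%.

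Transforming growth factor beta genes were read from ligand to target. Of the ligands, Tgfb1 had 7174, 6783 and 7479 normalized counts, Tgfb2 had 5072, 6418 and 8691 and Tgfb3 had 39961, 35120.1 and 56397. Tgfb1 was even, whereas Tgfb2 and Tgfb3 were highest in replicate 3, with ratios of 1.71 and 1.61. Ltbp1, which stores latent ligand in the matrix, had 3801, 3566 and 3175, and Thbs1, which can release it, had 86489, 99777 and 83190.2. The receptors were Tgfbr1 at 2446, 2545 and 1926, Tgfbr2 at 5071, 5337 and 3371 and the coreceptor Eng (endoglin) at 24429, 22215 and 26670.0. Tgfbr1 and Tgfbr2 were lowest in replicate 3, and Eng was highest there. Among the signal carriers, Smad2 had 2274, 2543 and 2474 and Smad3 had 1689, 1835 and 1664. Smad4, their common partner, had 4885, 4883 and 4690.3, and the inhibitory Smad7 had 5018, 4244 and 4739. These Smads varied little, and of the 23 genes of the pathway analysed 0 passed the 2-fold limit. Most of them had means over 1000, and few genes of such means passed it (0.743% from 1000 to 10000).

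Of 21 Hippo pathway genes and targets 0 passed that limit either. Yap1 had 3042, 3776 and 2984 normalized counts, a mean of 3267 ± 442 (SD, n = 3), and Wwtr1 had 2364, 2565 and 2280, a mean of 2403 ± 146. Both were highest in replicate 2. The kinases upstream were Stk3 at 1253, 1367 and 1334, Stk4 at 1657, 1557 and 1637, Lats1 at 3321, 4010.3 and 3094 and Lats2 at 7203, 7334 and 8033. Of their scaffolds and activators, Sav1 had 2003, 1877 and 1816, Mob1a had 5211, 5489.7 and 5399 and Nf2 (merlin) had 3665, 3331 and 3428. All of these ranked between 817 and 4686 of the 12271 genes, and their ratios of highest to lowest library were at most 1.30. Mob1b, the relative of Mob1a, was lower and varied more at 747, 1134 and 843, a ratio of 1.52. Of the TEAD factors that bring Yap and Wwtr1 to DNA, Tead1 had 1515, 2210.1 and 1872, Tead2 had 2371, 1981 and 2088 and Tead3 had 3893, 3580.5 and 3924. Tead1 had the largest ratio of these, 1.46.

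Of the known targets of Yap and Wwtr1, Ccn2 and Ccn1 took more reads than any of the pathway's kinases, coactivators or TEAD factors, without regard to transcript length. Ccn2, connective tissue growth factor, had 104083, 111609 and 134840.2 normalized counts, a mean of 116844 ± 16033 (SD, n = 3), and ranked 20. Ccn1, its relative CYR61, had 44368, 45692 and 50346 and ranked 77. Ankrd1, a muscle ankyrin repeat protein, had 12000.0, 12265 and 13737, and Amotl2, which holds Yap in the cytoplasm and is itself a target, had 13706, 13894 and 15015. Axl, a receptor kinase, had 14429, 16360.1 and 16539, and Crim1, a transmembrane BMP regulator, had 7129, 9919.8 and 10163. These 6 genes were each highest in replicate 3 and lowest in replicate 1, and their ratios ran from 1.10 to 1.43. Over all 21 genes of the list 9 were highest in replicate 3, beside 34.0% of all genes, 8 in replicate 2 and 4 in replicate 1. The lean of highly read genes towards replicate 3, given above with the contractile genes, applies here too, and its part was not tested.

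Promoters of Ccn2 and Ccn1 are shown as those of the most heavily read targets. Both are RefSeq sequences of build GRCr8 on the minus strand, at chr1:22624565-22624864 for Ccn2 and chr2:237225640-237225939 for Ccn1, and capitals again mark GGAATG or CATTCC.
Ccn2: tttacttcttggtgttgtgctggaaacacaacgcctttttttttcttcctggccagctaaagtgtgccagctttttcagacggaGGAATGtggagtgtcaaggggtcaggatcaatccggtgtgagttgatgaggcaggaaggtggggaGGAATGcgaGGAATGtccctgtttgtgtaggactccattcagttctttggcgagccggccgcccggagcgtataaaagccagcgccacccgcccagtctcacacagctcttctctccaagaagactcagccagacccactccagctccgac
Ccn1: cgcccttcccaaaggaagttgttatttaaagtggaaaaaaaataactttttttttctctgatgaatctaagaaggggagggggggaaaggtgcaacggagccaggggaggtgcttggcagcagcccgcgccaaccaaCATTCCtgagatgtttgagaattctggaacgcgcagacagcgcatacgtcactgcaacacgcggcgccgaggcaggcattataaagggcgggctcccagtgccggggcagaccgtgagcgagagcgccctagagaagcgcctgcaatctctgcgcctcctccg
Ccn2 held 3 matches, which begin 166, 101 and 92 bases before the start, and Ccn1 held 1, which begins 113 bases before it. Of the 16 Hippo list genes with a promoter in the table, 8 held the letters, against the 11.6% of analysed genes given above. The 8 were Ajuba, Amotl2, Ccn1, Ccn2, Mob1b, Sav1, Vgll4 and Yap1.

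Among the lists for other heart cells, cardiomyocyte genes took the largest mean share of the reads, although mural genes took more in replicate 3 (0.157% against 0.148%). In bulk RNA, fewer cells of a type and less RNA per cell cannot be told apart. Of 32 listed 30 were analysed, all at a mean of 10 or more, and their summed level was 92905, 95035 and 55308 normalized counts, or 0.25%, 0.262% and 0.148% of the reads. Tnnt2, cardiac troponin T, had 20176, 22519 and 16114, a mean of 19603 ± 3241 (SD, n = 3), and ranked 234. Actc1, cardiac actin, had 13311, 14842 and 7520.2, and Nppa, the atrial natriuretic peptide, had 15758, 11913 and 7419.9. Myh6, the alpha myosin heavy chain of heart muscle, had 9496, 9986 and 4616, and Myh7, the beta chain, had 8365, 9451 and 4069. Tnni3 (cardiac troponin I) had 919, 867 and 457, and Tnnc1 (troponin C of heart and slow muscle) had 1505, 1589 and 871. In each of these genes replicate 3 was the lowest.

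The low reading in replicate 3 ran through the list. There 27 of the 30 genes had their lowest value, as 34.1% of all genes did, and 16 of the 30 passed the 2-fold limit (53.3%, against 7.56%). Of the 16, 3 had means of 10 to 100. The median deviation was 0.27, 0.31 and -0.60 on the log2(value + 1) scale. The difference was not the same size for all members. Relative to replicate 1, replicate 3 stood at 0.799 for Tnnt2, 0.565 for Actc1, 0.497 for Tnni3 and 0.486 for Myh6. Ryr2, the calcium release channel, named after its values were seen, stood at 0.37. The 3 genes that were not lowest in replicate 3 were Hspb7, Myl4 and Myl7.

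Macrophage genes leaned to replicate 1. Of 22 listed genes 21 were analysed, and they took 0.132%, 0.105% and 0.0915% of the reads, with a summed level of 48961, 38132 and 34068 normalized counts. Lyz2 (lysozyme) had 14275, 10644 and 9893, a mean of 11604 ± 2343 (SD, n = 3), and ranked 470. Csf1r, the receptor for the macrophage growth factor CSF1, had 4392, 4047 and 3378, and Cd68, a lysosomal glycoprotein of macrophages, had 4758, 3255 and 2839. C1qa and C1qb encode complement components made by tissue macrophages. C1qa had 1739, 1377 and 1321, and C1qb had 1277, 898 and 1052. Of the 21 genes, 18 were highest in replicate 1, as 33.1% of all genes were, and 2 passed the 2-fold limit (9.52%, beside 7.56% of all genes), Adgre1 (F4/80) at 243, 117 and 111 and Cd74 (the invariant chain of antigen presentation) at 43.1, 67.0 and 135. The gene for the ligand of Csf1r, Csf1, was itself read at 9989.7, 11600.1 and 10268. Of 19 lymphoid, mast cell and neutrophil genes 2 were analysed, Kit at 219.6, 275 and 204 and Csf3r at 41.0, 23.0 and 36.2.

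Endothelial genes took few reads, though not all of them ranked low. The 21 of 22 genes analysed summed to 6363, 6076 and 6339 normalized counts, 0.0171%, 0.0168% and 0.017% of the reads. Of the 20 with a mean of 10 or more, 9 passed the 2-fold limit (45.0%, against 7.56% of all genes). All 9 had means of 10 to 100, where 38.3% of all genes passed. Pecam1 (CD31) had 71.8, 23.0 and 57.9, Cdh5 (VE-cadherin) had 135, 65.0 and 80.6 and Kdr (VEGF receptor 2) had 50.3, 80 and 33.1. Tek, the angiopoietin receptor, had 479, 454 and 285. The largest portion of the list's reads fell on Flt1 (VEGF receptor 1) at 2999, 3487 and 3883, a gene not limited to endothelium, which ranked 2054. Flt1 was lowest in replicate 1, where 12 of the 20 genes were highest (beside 33.1% of all genes), so the even sum hides opposite leans.

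Mural genes, which mark pericytes and smooth muscle, gave a split reading. They took 0.113%, 0.13% and 0.157% of the reads over 11 genes of 12 listed. Of the pericyte markers, Rgs5 had 86.2, 98.0 and 96.1, Kcnj8 had 65.7, 80 and 87.9 and Abcc9 had 629, 538 and 387 normalized counts, all low in the ranking. Notch3, the Notch receptor of mural cells, had 17593, 16111 and 20416, Mcam (CD146) had 15005, 17958 and 26291 and Cspg4 (NG2) had 4790.1, 7175 and 6312. Mcam was highest in replicate 3, at 1.75 times replicate 1. Since Pdgfrb and the contractile genes are shared by mural cells and myofibroblasts, these lists cannot separate the cell types.

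Genes of the heart's outer lining were read at low levels. Of 18 epicardial and mesothelial genes 12 were analysed, and they summed to 6506, 4882 and 5132 normalized counts. Wt1, a transcription factor of the epicardium, had 785, 932 and 715, and Aldh1a2, which makes retinoic acid, had 2541, 1343 and 1928. Msln (mesothelin) had 639, 416 and 304, Upk1b (a uroplakin of mesothelium) had 207, 98.0 and 98.2 and Gpm6a (a membrane glycoprotein) had 349.9, 174 and 116. Of the 12, 8 were highest in replicate 1, beside the 33.1% of all genes, and 7 passed the 2-fold limit (58.3%, against 7.56% of all genes and 38.3% of genes with means of 10 to 100, where Krt8, Krt18, Krt19 and Cdh1 lay).

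Markers of other cell types were also read. Glial and neuronal genes, 9 of 11 listed, took 0.0227%, 0.0203% and 0.0229% of the reads, nearly all of them on Tubb3, the neuronal class of beta tubulin, at 7906, 6974 and 8002 normalized counts. Sox10, a transcription factor of Schwann cells, had 70.8, 28.0 and 117 normalized counts. The haemoglobin gene Hba1 had 12.3, 22.0 and 22.7. Of 6 adipocyte genes 2 were analysed, of which Pparg, the regulator of fat cell fate, had 93.4, 89.0 and 44.4, and Lpl (lipoprotein lipase), made by heart muscle as well as fat, had 4963, 5026 and 3101. Lpl was lowest in replicate 3, as the cardiomyocyte genes were.

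Cell cycle genes took a like share of the reads in each library. The 36 proliferation genes analysed, of 37 listed, took 0.178%, 0.178% and 0.178% of the reads. Mki67, the marker of cycling nuclei, had 5788, 6552 and 5859 normalized counts, and Top2a, which untangles DNA for mitosis, had 2912, 2793 and 2665. The mitotic kinase gene Cdk1 had 2188, 2267 and 2680, and its cyclin Ccnb1 had 1562, 1410.4 and 1659. Mcm2, of the replication helicase, had 3927, 3556 and 3589.6, and Rrm1, of the enzyme that makes deoxynucleotides, had 3592, 3647 and 3521. The list's median CV was 6.77%, and 0 of its 36 genes passed the 2-fold limit. All had means of 100 to 10000, where 4.02% (below 1000) and 0.743% (above) of all genes passed it.

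The listed interferon-induced genes set replicate 2 apart. These genes encode antiviral proteins and are switched on through STAT and IRF factors. Of 40 listed 35 were analysed and 31 had a mean of 10 or more. Of the 31, 29 were highest in replicate 2, as 32.8% of all genes were, and 18 passed the 2-fold limit (58.1%, against 7.56%). Of the 18, 9 had means of 10 to 100, where 38.3% of all genes passed, and 9 had means of 100 to 1000, where 4.02% did. The median deviation was -0.37, 0.82 and -0.31 on the log2(value + 1) scale in replicates 1, 2 and 3. The difference concerned few reads, since the list took 0.0573%, 0.087% and 0.0537% of the total. Ifitm3, an interferon-induced gene outside the list, had more reads than any member. It had 20114, 18599 and 18459 normalized counts, highest in replicate 1.

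Members with the most reads had ratios of at most 1.70 between libraries. Ifi27 had 5175, 5437 and 4037 normalized counts, and Stat2, a transcription factor of the response, had 3068, 4358 and 3069.7. Ifit2 had 2115, 2526 and 2148, and Eif2ak2, the kinase PKR that senses double-stranded RNA, had 1246, 1908 and 1120.4. In contrast Mx1, a GTPase that blocks viral replication, had 18.5, 494 and 95.1, and its relative Mx2 had 34.9, 951 and 139.5. Replicate 2 was thus 25.4 and 26.5 times replicate 1 on the value + 1 scale, and replicate 3 lay between. The following 3 genes were named after their values were seen. Irf7, the regulator that amplifies the response, had 197, 853 and 334, Isg15, a ubiquitin-like protein, had 55.4, 252 and 74.4 and Oas1a, which makes the second messenger 2-5A, had 12.3, 244 and 31.0. Mx and Oas genes belong to families of close relatives, so single members are uncertain.

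Promoters of Irf7 and Oas1a are shown as examples of this group, from RefSeq build GRCr8 at chr1:205799974-205800273 on the minus strand and chr12:41330216-41330515 on the plus strand. Capitals mark GAAANNGAAA or its reverse complement TTTCNNTTTC, the letters of an interferon-stimulated response element.
Irf7: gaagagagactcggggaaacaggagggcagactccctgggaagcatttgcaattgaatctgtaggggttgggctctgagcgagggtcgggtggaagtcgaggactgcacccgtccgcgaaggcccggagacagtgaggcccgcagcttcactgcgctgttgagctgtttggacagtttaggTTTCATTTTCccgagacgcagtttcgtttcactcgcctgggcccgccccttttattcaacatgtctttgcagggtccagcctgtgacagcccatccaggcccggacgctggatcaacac
Oas1a: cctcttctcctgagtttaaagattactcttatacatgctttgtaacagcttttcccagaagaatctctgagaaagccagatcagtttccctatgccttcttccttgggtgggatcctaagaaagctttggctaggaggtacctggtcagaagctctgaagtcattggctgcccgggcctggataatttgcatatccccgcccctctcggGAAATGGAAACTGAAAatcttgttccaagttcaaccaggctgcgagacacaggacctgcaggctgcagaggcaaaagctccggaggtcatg
Irf7 held 1 match, which begins 69 bases before the start, and Oas1a held 2 that overlap, which begin 41 and 35 bases before it. Of 24 interferon list genes with a promoter in the RefSeq set, 16 held the letters on either strand (66.7%). The share was 4.12% over all genes there and 3.00% over the analysed genes. The group's higher level in replicate 2 and its shared letters are given side by side, and binding was not measured.

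Inflammatory signals were also higher in replicate 2. Of 26 secreted inflammatory genes analysed, 15 were highest there, beside the 32.8% of all genes, and 11 passed the 2-fold limit (42.3%, against 7.56% of all genes). Low genes passed it more often, 38.3% of those with means of 10 to 100, where Il1a, Il1b, Il6 and Cxcl2 lay. Ccl2, which attracts monocytes, had 4639, 14432 and 6990.0 normalized counts, a ratio of 3.11. C1r, a complement protease, had 11048, 14739 and 9402, Tnfrsf11b (osteoprotegerin) had 10521, 11506 and 10793 and Il1rl1, the receptor for interleukin 33, had 5335, 6672 and 8243. Il1rl1 differed from the others in that replicate 3 was its highest. Lcn2 (lipocalin 2), an acute-phase protein, had 55.4, 259 and 42.4.

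**Figure D4:**
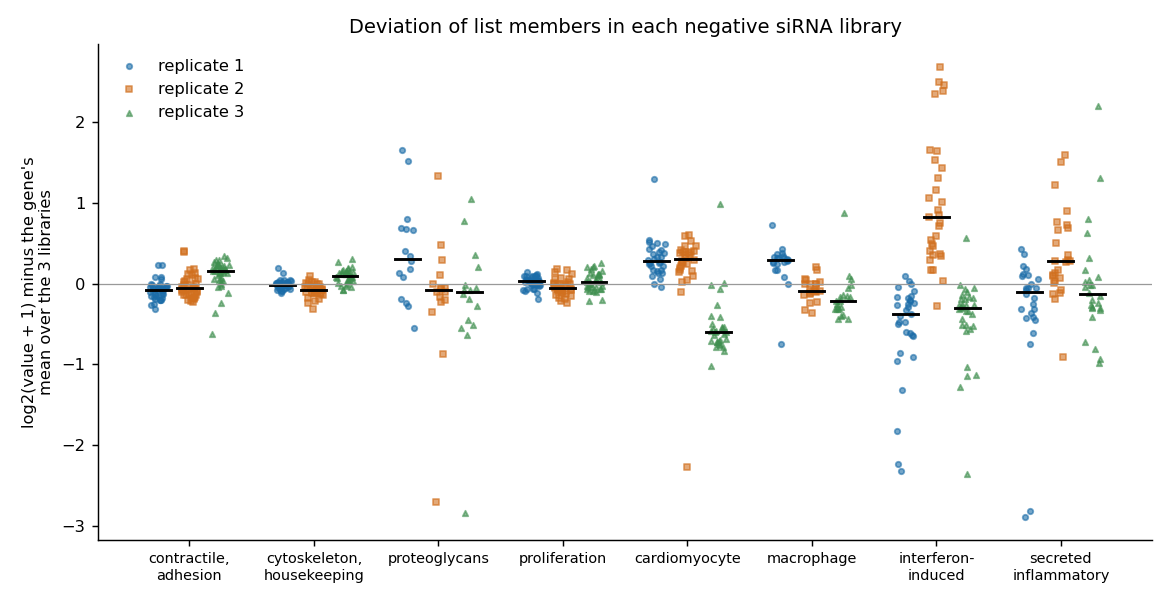
Deviation of each list member from its own mean over the 3 negative siRNA libraries, on the log2(value + 1) scale (y axis), for members with a mean of at least 10; black bars are medians. Interferon-induced genes lie highest in replicate 2 (median 0.82), cardiomyocyte genes lowest in replicate 3 (median -0.60), and proliferation genes lie near 0 in each library.

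Over all genes the 3 libraries were alike. Pearson's r of log2(value + 1) across the genes with a mean of at least 10 was 0.980 for replicates 1 and 2, 0.978 for 1 and 3, and 0.981 for 2 and 3, a description across genes, which are not independent replicates. The chi-square per gene of the read counts was 32.7, 42.8 and 34.8, so each pair differed by more than sampling noise and none was a library deposited again. The median CV was 9.32%, where counting alone gives 3.35%. It was 30.4% for the 1738 genes with means from 10 to 100, 10.9% from 100 to 1000, 6.67% from 1000 to 10000 and 6.49% above. The share of genes that passed the 2-fold limit went from 38.3% in the first of these classes to 0.873% in the last. Of the 885 genes that passed it, 412 were lowest in replicate 3, 239 in replicate 1 and 234 in replicate 2.

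**Figure D5:**
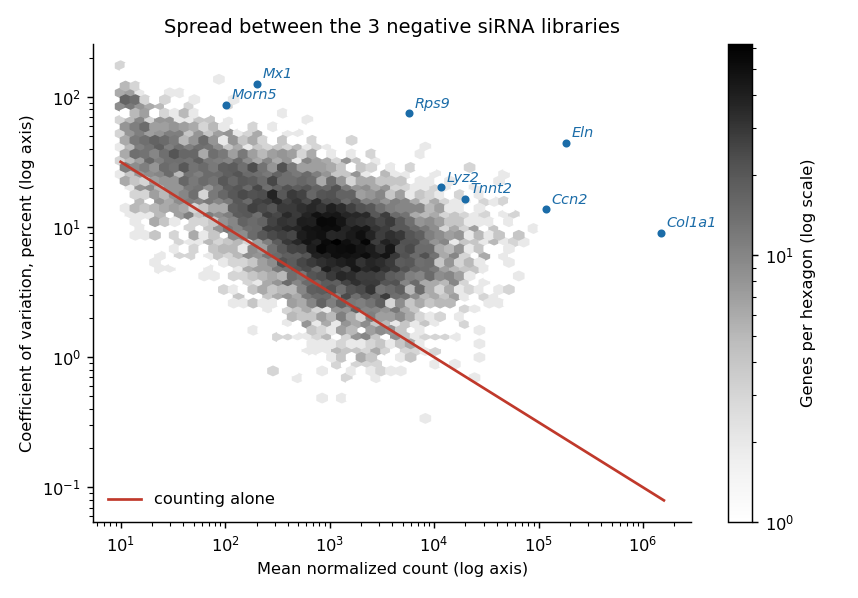
CV over the 3 negative siRNA libraries in percent (log y axis) against mean normalized count (log x axis) for 11714 genes; darker hexagons hold more genes, and the line is the CV that counting alone gives. The median CV was 9.32%, and Eln, Rps9 and Mx1 lie far above genes of like mean.

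The largest ratios among genes with a mean of at least 100 had several forms. Morn5, a protein with MORN repeats, had 156, 0 and 149 normalized counts, and it was the single gene at 0 in 1 library with over 100 in the others, which may be a failed estimate. Tsen34l1 had 7.18, 887 and 19.6 while its relative Tsen34, a subunit of the tRNA splicing enzyme, had 2758, 1626 and 2878. Their sum was nearly level at 2766, 2513 and 2898. Rps9, a ribosomal protein, had 1292, 9896 and 6129 and Rps9l1 had 21621, 10001 and 14548, and their sum was 22913, 19897 and 20677. Abcg3l2 had 596, 336 and 19.6 and Abcg3l4 had 201, 781 and 930.2, with a sum of 797, 1117 and 949.8. In these pairs the single genes moved apart far more than the sum, and how reads were divided between such relatives was not tested.

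Other genes of that set were Mx1, Mx2 and Lcn2, described above, and genes of low count. Fgd5, an activator of the GTPase Cdc42, had 269, 103 and 30 normalized counts, and Diras2, a Ras-like GTPase, had 23.6, 110.0 and 203. Fgd5 was highest in replicate 1, and Diras2 was highest in replicate 3. At the other end, among the 500 genes of highest mean, Rps3a, Septin2, Tpt1, Eif4g2 and Rpl28 had the smallest ratios. Rps3a, a ribosomal protein, had 37384, 37460.1 and 37161, and Tpt1, translationally controlled tumour protein, had 78679, 78376 and 77947. Their CVs were 0.417% and 0.47%. Septin2, a filament-forming GTPase, had 18892, 19055 and 18926.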

How the data were processed

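RNA was measured by sequencing in 3 negative siRNA libraries of cultured neonatal rat cardiac fibroblasts, grouped and numbered by their titles. Per the submitters' processing notes and the study's methods, the authors trimmed adapters with Trim Galore 0.6.5, aligned reads to rat build rn6 with HISAT2 (version 2) and estimated abundance with StringTie. The deposited signal values are counts that the authors divided by 1 size factor per library. The strand setting of the counting is not given in the sources used here. All 36813 values were whole multiples of 1 step per library within 0.01 steps, and those multiples are called reads, although they may be mates or derive from coverage. Totals were 36.0 to 36.3 M, above the depth that the methods state, and counting error is given only as a CV. Columns of the authors' comparisons (fold changes and p-values) and the 9 knockdown columns were not used.

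Values were read with Python 3.11.15, numpy and pandas. Shares are percentages of the library total. Deviations and ratios used a pseudocount of 1, and spread was computed for genes with a mean of at least 10. The 26 gene lists hold 651 genes, of which 549 were analysed. The members and lists were chosen with earlier results of these data known. Named genes were the 4 markers Col1a1, Ccn2, Tnnt2 and Lyz2, the 20 genes of highest mean, the 5 members of highest mean in each list, the first 5 written in lists of other cell types, the 10 genes with the largest ratio between libraries at a mean of at least 100, the 5 with the smallest among the 500 of highest mean, and any fibrillar collagen, Hippo or TGF-beta gene. Some genes that the rule names are not reported here. Genes named outside it were chosen after their values were seen. Of the symbols, 11860 matched RefSeq names of GRCr8, from which promoters were taken. Steps were tested on simulated counts. Alternatives were other scalings, filters, pseudocounts, the median, totals without the first 20 genes and leaving out each library.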

Additional observations from a re-analysis of the deposited data

How the results depend on the processing

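Of 86 values recomputed under alternatives, 77 stayed within 1 SD of the reported value or, for counts, ranks and the median CV, within 1.5 times of it. Most of them had little room to move, since leaving out 1 of 3 libraries cannot shift a mean by 1 SD and the other scalings shifted libraries by at most 0.025 on the log2 scale. With the 20 genes of highest mean left out of the total, and out of the lists, the share of the reads was 1.17% for collagens, 3.83% for collagens, glycoproteins and proteoglycans, 3.02% for contractile genes, 0.134% for macrophage genes and 0.0208% for endothelial genes. The number of genes over 2-fold between libraries was 220 at a mean of at least 100, and 419 to 501 when each library was left out in turn, since fewer libraries leave fewer extremes. Without a filter it was 1305, and with a pseudocount of 10 it was 593. Counts of list members highest or lowest in a library were recomputed under 3 other scalings, an alternative chosen after seeing the data, and moved by at most 1 gene. The planned values per transcript length were not run because no table of rn6 transcript lengths was used here. No paired analysis was possible because 1 group was described and the results come from no test. Counting error was highest for genes with means of 10 to 100, a CV of 17.2% beside their median CV of 30.4% between libraries.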

Other observations

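Growth factor genes were not described above as a group, although Igfbp7 is also among the matrix glycoproteins. All 33 listed were analysed, and they took 0.264%, 0.254% and 0.255% of the reads in replicates 1, 2 and 3. Igfbp7, which binds insulin-like growth factors, had 33190.3, 32436 and 39397 normalized counts, and Gas6, the ligand of Axl, had 18555, 14821 and 13598, highest in replicate 1. Igfbp3 had 8881, 8848 and 7239, Vegfa, the angiogenic factor, had 6084, 6371 and 5675 and Bmp6 had 2896, 3572 and 2758. Gas6 and its receptor Axl thus leaned to different libraries, Gas6 to replicate 1 and Axl to replicate 3.

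Brakes on the cell cycle and early stress genes were read beside the proliferation genes. Cdkn1a, the inhibitor p21, had 3858, 4589 and 6484 normalized counts, highest in replicate 3, with a ratio of 1.68. Cdkn1b, the inhibitor p27, had 1633, 1413 and 1504. None of the 10 inhibitors analysed passed the 2-fold limit, and few genes of like means did (4.02% from 100 to 1000 and 0.743% from 1000 to 10000). Among 13 stress and early response genes, which also had 0 over that limit, Asns (asparagine synthetase) had 9251, 9737 and 9665, Egr1 had 7502, 7315 and 7022 and Jun had 3589.5, 4172 and 3619.5.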
